A study of Homo sapiens with 6 samples.

Results

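The matrix metalloproteinase (MMP) genes of K1 cells, an established line of human papillary thyroid carcinoma, were described in control cells and in cells in which the microRNA miR-31 was targeted. Members were the rows of the authors' deposited table whose name starts with MMP and a digit. There were 5 of them among 986 listed genes: MMP1, MMP2, MMP3, MMP17 and MMP28. Both groups were K1 cells grown in DMEM with 10% fetal bovine serum. The control group (3 libraries) received a control transfection, and the miR-31 KO group (3 libraries) was transfected with an sgRNA directed at miR-31. The labels do not say whether the KO cells were 1 clone or a pool. Nor do they say whether replicates are separate cultures, and a p-value here may therefore reflect technical spread alone. The comparison asked which transcripts differ between cells with targeted miR-31 and control cells.

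MMPs are zinc-dependent endopeptidases that are made as inactive precursors and, once activated, cut collagens, laminins, proteoglycans and other proteins outside the cell. Secreted collagenases, gelatinases and stromelysins act in the surrounding matrix, membrane-type members act at the cell surface, and TIMP proteins inhibit them. In carcinomas they are known for their part in invasion through the basement membrane and stroma, where fibroblasts are often a main source.

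The targeted microRNA is shown with the 1 seed match found in the members, from a search for miR-31-5p only. The mature miR-31-5p lies at chr9:21512158-21512178 on the minus strand (RefSeq, GRCh38.p14), and capitals mark its seed, bases 2 to 8. The lower sequence is from the 3' UTR of MMP3 (GENCODE release 29, transcript strand), and capitals mark the 7 bases that pair with the seed, TCTTGCC.
hsa-miR-31-5p: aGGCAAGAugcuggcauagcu
MMP3 site: gtgaatctgtaTCTTGCCggtcat
Sites of at least 7 bases (the match above, or its last 6 bases, CTTGCC, followed by A) were searched in the longest annotated 3' UTR of each member. The 3' UTR of MMP3 (325 bases) held 1 such site. Those of MMP1 (492 bases), MMP2 (1249 bases), MMP17 (509 bases) and MMP28 (604 bases) held 0. Of 19120 protein coding genes with an annotated 3' UTR, 19.2% held a site. Among the 13253 with a 3' UTR of 2000 bases or less the share was 9.98%. A match describes these letters and is not evidence of binding. Of the 5 members, 0 matched in the RefSeq promoter table used here.

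Of the 5 listed genes, 3 rose and 2 fell in miR-31 KO, per the authors' deposited table. The secreted enzymes MMP1, MMP2 and MMP3 were abundant and rose between 4.66-fold and 10.4-fold, per the authors' deposited table. MMP17, a membrane-type MMP held by a lipid anchor, and MMP28, known as epilysin, were scarce and fell. The table holds only genes with an adjusted p up to 0.0497 and at least a 2-fold difference, so every member had passed that selection and its call is a description. The selection kept 5.87% of the 16806 genes tested by the authors, 3.53% as higher and 2.34% as lower. Of 23 human MMP genes 21.7% were listed, 13% as higher and 8.7% as lower; how many of the 23 the authors tested is unknown, and no test was made. The other 18 (MMP7 to MMP16, MMP19, MMP20, MMP21, MMP23B and MMP24 to MMP27) have no row in the table used here and cannot be called unchanged. In bulk RNA, fewer cells of a type and less RNA per cell cannot be told apart.

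**Figure D1:**
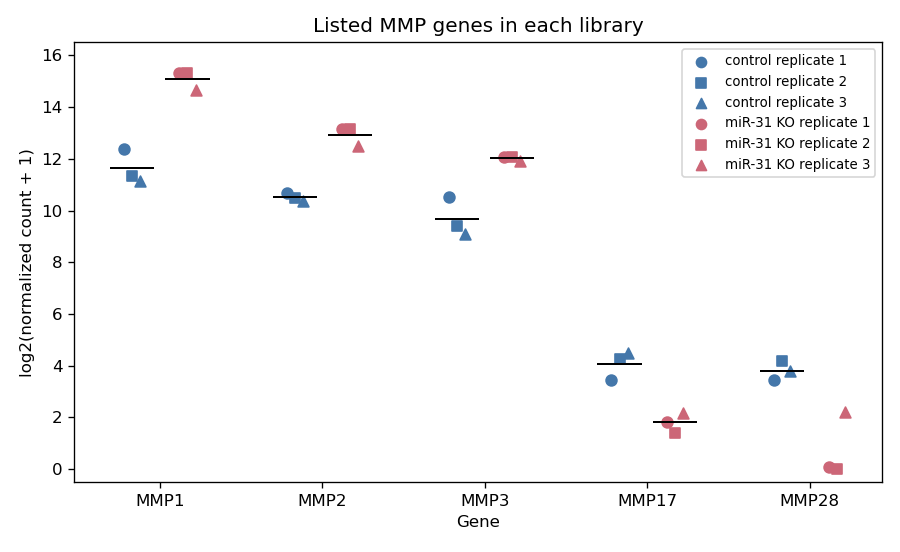
Normalized counts of the 5 listed MMP genes in each library, as log2(normalized count + 1) on the vertical axis; blue points are control and red points miR-31 KO libraries, the symbol gives the replicate number, and bars are group means (none for MMP28 in miR-31 KO, where a library is listed at 0). The 3 abundant genes lie higher in every KO library than in any control library, and the 2 scarce genes lie lower.

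MMP1 encodes interstitial collagenase, which cuts the fibrillar collagens of connective tissue. The gene lies on chromosome 11 from 102789920 to 102798160 (GENCODE release 29, GRCh38, minus strand). In control replicates 1, 2 and 3 its normalized counts were 5393, 2615 and 2240. The miR-31 KO replicates 1, 2 and 3 had 41116, 40415 and 25558. The groups did not overlap, control replicate 1 was the highest control and KO replicate 3 the lowest KO library, and the gene was among the most abundant of the table in the KO libraries. By normalized count MMP1 ranked 27, 45 and 51 of 986 in the controls and 7, 7 and 6 in the KO libraries. Its share of the summed counts of all listed genes was 0.873%, 0.456% and 0.411% in the controls and 4.36%, 4.35% and 3.90% in the KO libraries. The log2 fold change was 3.39 with an adjusted p of 1.96e-30, per the authors' deposited table. A limma refit of all 986 listed genes on log2(normalized count + 1) gave 3.46 ± 0.36 (SE), with an adjusted p of 0.00254. After quantile normalization of the listed genes the limma refit gave 2.61 for MMP1, with an adjusted p of 0.00219.

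MMP2, on chromosome 16 from 55389700 to 55506691 (plus strand), encodes gelatinase A, which degrades denatured collagen and type IV collagen of basement membranes. Its precursor is activated at the cell surface by MMP14 together with TIMP2, neither of which was listed. Normalized counts were 1619, 1421 and 1332 in control replicates 1, 2 and 3. They were 9108, 9192 and 5752 in KO replicates 1, 2 and 3. The controls lay close together, with a coefficient of variation of 10.1% against 24.5% among the KO libraries, where replicate 3 was low. MMP2 ranked 73, 80 and 84 of 986 in the controls and 19, 19 and 23 in the KO libraries. The log2 fold change was 2.46 with an adjusted p of 9.68e-50, the smallest of the 5 members and 16th of all listed genes, per the authors' deposited table. The limma refit gave 2.43 ± 0.23 (SE), with an adjusted p of 0.00177.

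MMP3 encodes stromelysin-1, which cuts proteoglycans, laminin and fibronectin and can activate other MMP precursors, that of MMP1 among them. It lies on chromosome 11 from 102835801 to 102843803 (minus strand). Its normalized counts were 1460, 681 and 538 in control replicates 1, 2 and 3. KO replicates 1, 2 and 3 had 4324, 4324 and 3858. Here the KO libraries lay close together, with a coefficient of variation of 6.46%, and the controls were spread, at 55.5%, with replicate 1 at the top. The log2 fold change was 2.22 with an adjusted p of 8.97e-15, per the authors' deposited table. The limma refit gave 2.36 ± 0.34 (SE), with an adjusted p of 0.0116. Without control replicate 2, control replicate 3 or any 1 of the KO libraries, the refit left MMP3 above the 0.05 threshold, with adjusted p between 0.052 and 0.12. Without control replicate 1 the adjusted p was 0.000895.

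MMP1 and MMP3 are neighbours in a cluster of 9 MMP genes on chromosome 11, between 102520508 and 102955734, with 37640 bases and 0 other protein coding genes between them. The other 7 genes of the cluster (MMP7, MMP20, MMP27, MMP8, MMP10, MMP12 and MMP13) were not listed. Paralogs can share reads, so the transcripts were compared with those of all other genes in runs of 50 bases. MMP3 shared 59 of 1967 runs with MMP10, another stromelysin gene. MMP2 shared 127 of 3692 with AC007336.3, and MMP1, MMP17 and MMP28 shared 0.

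MMP17 and MMP28 were the members that fell. MMP17 encodes a membrane-type MMP with a glycosylphosphatidylinositol anchor and lies on chromosome 12 from 131828393 to 131851783 (plus strand). Its normalized counts were 9.93, 18.03 and 21.7 in control replicates 1, 2 and 3 and 2.53, 1.65 and 3.54 in the KO replicates. The log2 fold change was -2.63 with an adjusted p of 0.0011, per the authors' deposited table. The groups did not overlap, but all values were low. In the limma refit MMP17 changed by -2.26 ± 0.47 (SE) with an adjusted p of 0.0497, and with the replicate number as a block the adjusted p was 0.0893. It passed without control replicate 1 (adjusted p = 0.0484) and missed the threshold in the limma refit without any other 1 library, with adjusted p between 0.0894 and 0.229. After quantile normalization the limma refit gave -3.50 for MMP17, with an adjusted p of 0.00582.

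MMP28, on chromosome 17 from 35756249 to 35795707 (minus strand), encodes epilysin, a secreted MMP known from keratinocytes and other epithelia. Its normalized counts were 9.85, 17.03 and 12.8 in control replicates 1, 2 and 3. KO replicates 1 and 3 had 0.0673 and 3.65, and KO replicate 2 was listed at 0. The table lists 79 genes at 0 in all libraries of a group, the widely used gene RBCK1 among them, so no mean count is given for MMP28 in miR-31 KO. The log2 fold change was -3.26 with an adjusted p of 0.000319, per the authors' deposited table. The limma refit, which takes this 0 into its log2 mean, gave -3.03 ± 0.66 (SE) and did not pass, with an adjusted p of 0.0641 (0.0818 with the replicate number as a block). Without KO replicate 3 the refit gave -3.75 with an adjusted p of 0.0128. Without any other 1 library the limma refit gave adjusted p between 0.121 and 0.342, with -2.64 without KO replicate 2, the library listed at 0. The value of MMP28 also moved with the pseudocount, to -5.03 with 0.1 added in place of 1.

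The groups did not overlap for any of the 5 members, as for 92.6% of all listed genes. An exact two-sided permutation test on log2(normalized count + 1) gave p = 0.1 for each member, the smallest p that 3 against 3 libraries allow. The refit called 3 members higher and 1 lower, where it called 28.2% of the listed genes higher and 17.1% lower.

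The sums given next cover only the 986 listed genes, 593 of them higher in miR-31 KO by the authors' selection. They are therefore not library totals and do not compare whole libraries. The normalized counts of all listed genes summed to between 545354 and 617681 in the controls and to 943360, 929680 and 655191 in KO replicates 1, 2 and 3. Without MMP1, MMP2 and MMP3 the sums were between 541244 and 609209 in the controls and between 620024 and 888812 in the KO libraries. The 3 genes together held 1.37%, 0.822% and 0.754% of the summed counts in the controls and 5.78%, 5.80% and 5.37% in KO replicates 1, 2 and 3. KO replicate 3 thus had the lowest counts of the 3 genes among the KO libraries and a lower sum of listed genes. Its joint share of the 3 genes was near that of the other KO libraries. Taken singly, the share of MMP3 was highest in KO replicate 3, at 0.589% against 0.458% and 0.465% in KO replicates 1 and 2. Those of MMP1 and MMP2 were lowest there. The table does not give the total depth of a library.

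In all 5 members, control replicate 1 lay toward the KO group and KO replicate 3 toward the control group. Control replicate 1 was the highest control and KO replicate 3 the lowest KO library for each of the 3 genes that rose, a combination seen in 34.1% of all listed higher genes. The mirrored combination held for both genes that fell and for 30.5% of all listed lower genes. On the log2 scale, with 0 at the mean of control replicates 2 and 3 and 1 at the mean of KO replicates 1 and 2, control replicate 1 stood at 0.284 for MMP1, 0.0858 for MMP2, 0.448 for MMP3, 0.335 for MMP17 and 0.137 for MMP28. The median was 0.0421 over the listed higher genes and 0.0694 over the lower ones. KO replicate 3, measured from the KO side, stood at 0.165 for MMP1, 0.245 for MMP2, 0.0581 for MMP3, 0.205 for MMP17 and 0.552 for MMP28, against medians of 0.0841 and 0.0911. The shift of control replicate 1 was thus greatest in MMP3 and least in MMP2, and that of KO replicate 3 was greatest in MMP28 and least in MMP3. The part of these 2 libraries' difference from their groups in the results was not tested beyond leaving them out. With both left out, the limma refit gave log2 fold changes of 4.07 for MMP1, 2.73 for MMP2 and 2.83 for MMP3, a setting chosen after the values were seen.

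Ratios between the abundant members within a library do not change when a whole library is multiplied by 1 factor, though they do under a normalization that reshapes its values. Quantile normalization here covered only the listed genes, which had been selected as different between the groups. It therefore cannot decide whether the ratios changed, and its values are given as a description. The ratio of MMP1 to MMP2 normalized counts was 3.33, 1.84 and 1.68 in control replicates 1, 2 and 3. It was 4.51, 4.40 and 4.44 in KO replicates 1, 2 and 3. The KO libraries held a nearly constant ratio, above every control, although their levels differed. Its log2 mean went from 1.12 ± 0.54 to 2.15 ± 0.019 (SD, n = 3), a difference of 1.03, which was 0.283 with overlapping groups after quantile normalization. The ratio of MMP1 to MMP3 was 3.69, 3.84 and 4.16 in the controls and 9.51, 9.35 and 6.62 in the KO libraries. Here the controls were nearly constant, although the counts of both genes differed more than 2-fold between control libraries. The log2 mean went from 1.96 ± 0.088 to 3.07 ± 0.29 (SD, n = 3), a difference of 1.11, which was 0.306 after quantile normalization, with groups still apart. In the deposited values both ratios were separated between groups, with an exact two-sided permutation p of 0.1, the smallest this design allows, and 0.15 after adjustment over 3 pairs. The ratio of MMP3 to MMP2 was 0.902, 0.480 and 0.404 in the controls and 0.475, 0.470 and 0.671 in the KO libraries. These groups overlapped, with a log2 difference of -0.075 and an exact two-sided permutation p of 0.8.

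**Figure D2:**
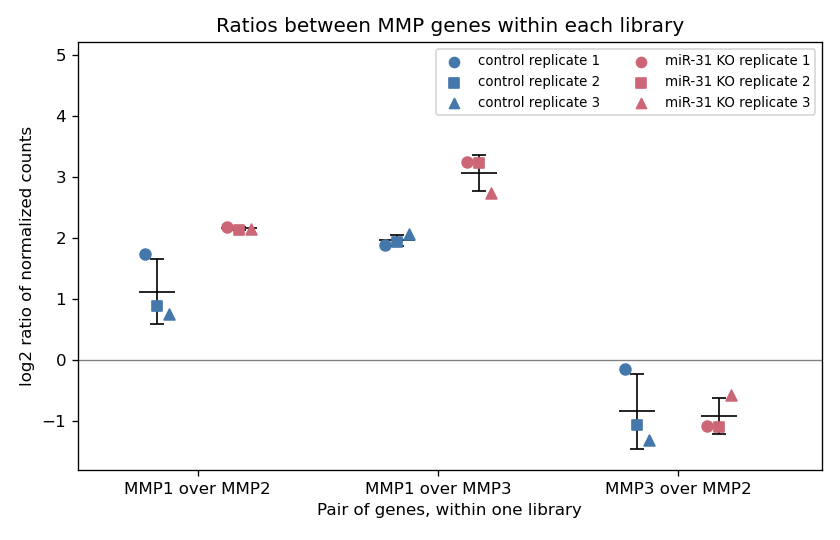
Ratio of normalized counts between pairs of MMP genes within each library, as log2 on the vertical axis; blue points are control and red points miR-31 KO libraries, the symbol gives the replicate number, and black marks are means with SD (n = 3). In these deposited values the ratios of MMP1 to MMP2 and of MMP1 to MMP3 are higher in all KO libraries than in all controls (after quantile normalization the first overlaps), and the ratio of MMP3 to MMP2 overlaps.

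Levels of different genes were compared as normalized counts per kilobase of the longest coding transcript. MMP1 had the highest level, 1734 ± 874 per kilobase in the controls and 18120 ± 4461 in miR-31 KO (SD, n = 3), and exceeded the next gene in every library of both groups. MMP3 and MMP2 came next, at 443 ± 246 and 390 ± 39.2 per kilobase in the controls and 2068 ± 134 and 2143 ± 525 in miR-31 KO. These 2 neighbours overlapped in both groups with that length. MMP3 was above MMP2 in 1 of 3 control libraries, replicate 1, and MMP2 was above MMP3 in 2 of 3 KO libraries. With the union of exons their order in miR-31 KO turned, at 2036 ± 131 for MMP3 and 1625 ± 398 for MMP2, and MMP3 was above MMP2 in 3 of 3 KO libraries without overlap. MMP17 and MMP28 followed at 6.86 ± 2.49 and 6.50 ± 1.78 per kilobase in the controls, overlapping each other and 56.8 times below MMP2 for MMP17. In miR-31 KO the libraries had between 0.685 and 1.47 per kilobase for MMP17 and between 0 and 1.79 for MMP28. 

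Genes related to MMPs or the matrix were taken from 9 further lists of 172 genes in all. Of these 19 were listed (11%), 10 as higher (5.81%) and 9 as lower (5.23%). Besides proteases, the lists held matrix proteins, collagen assembly genes, transcription factors and genes of cytokines, growth factors and receptors. The counts are therefore not those of matrix breakdown alone. Over all genes tested by the authors the shares were 5.87%, 3.53% and 2.34%, and no test of the lists was made. None of the 8 metalloproteinase inhibitors (TIMP1 to TIMP4, RECK, A2M, PZP and TFPI2), of the 10 plasminogen activation genes or of the 15 collagen assembly genes was listed. Of 31 ADAM and ADAMTS proteases, relatives of the MMPs, 7 were listed, 4 as higher and 3 as lower. This share of 22.6% was near the 21.7% of the MMP genes. The median deposited log2 fold change of the 7 was 1.16 against 1.27 over all listed genes. ADAMTS7 had 466 ± 96.1 normalized counts in the controls and 1120 ± 250.1 in miR-31 KO (SD, n = 3). ADAMTS9, which cuts versican and aggrecan, had 345 ± 142 and 769 ± 203. ADAMTS14, which trims procollagen, went the other way, with 473 ± 96.7 and 142 ± 26.8. ADAM28 was low, with 7.15 ± 1.12 and 24.7 ± 8.85. Their adjusted p-values were 9.53e-09, 0.000412, 1.89e-11 and 0.00516 in that order, per the authors' deposited table.

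Matrix proteins that MMPs cut were listed on 1 side. Of 44 such genes 5 were listed (11.4%, against 5.87% of all genes tested), all lower, where 2.34% of all genes tested were lower. Their median deposited log2 fold change was -1.12, against 1.27 over all listed genes. LAMA3, a laminin chain of epithelial basement membranes, fell from 3820 ± 331 to 1476 ± 82.7 normalized counts (SD, n = 3). HSPG2, which encodes the proteoglycan perlecan, fell from 4749 ± 510.0 to 2195 ± 122. COL6A3 fell from 64764 ± 11933 to 29900 ± 2296, NID2, a basement membrane linker, from 5405 ± 555 to 2486 ± 641, and COL18A1 from 229 ± 55.8 to 84.0 ± 14.5. The groups did not overlap for these 5 genes, as for 92.6% of all listed genes. The adjusted p was between 8.10e-35 for LAMA3 and 4.20e-06 for COL18A1, per the authors' deposited table. Fibrillar collagen genes such as COL1A1, COL1A2 and COL3A1 were not listed.

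Of 11 activators and surface partners of MMPs, 1 was listed (9.09%, against 5.87% of all genes tested). It was ITGB3, the beta chain of a vitronectin-binding integrin, which rose from 7960 ± 1705 to 17838 ± 2898 normalized counts (adjusted p = 4.97e-13, per the authors' deposited table). Of 13 lysosomal matrix proteases and related enzymes 2 were listed (15.4%), both higher, where 3.53% of all genes tested were higher. For the cysteine protease gene CTSS the controls had 889, 399 and 398 normalized counts and the KO replicates 3094, 3010 and 1298. The heparanase gene HPSE rose from 365 ± 52.3 to 784 ± 82.1. Of 17 AP-1, ETS and RUNX factors, a group that includes known regulators of MMP promoters, 1 was listed (5.88%). It was RUNX3, which fell from 760 ± 81.0 to 367 ± 21.4, where 2.34% of all genes tested were lower.

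Another list held 23 cytokine, growth factor and receptor genes, among them genes known to induce MMPs in other cells. Of these 23, 3 were listed (13%, against 5.87% of all genes tested), all higher. Over all genes tested 3.53% were higher, as were 593 of the 986 listed. For IL1A the controls had 2229, 1370 and 1263 normalized counts and the KO replicates 4926, 5010 and 3250. IL6 had 5279, 2962 and 3028 in the controls and 14653, 13731 and 7667 in the KO replicates. IL1B had 24935, 9830 and 8285 in the controls and 48730, 45976 and 14155 in the KO replicates, so its groups overlapped. In these 3 genes control replicate 1 was the highest control and KO replicate 3 the lowest KO library, as in 34.1% of all listed higher genes. Their deposited adjusted p-values were 4.94e-11, 8.38e-11 and 0.00774, per the authors' deposited table.

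**Figure D3:**
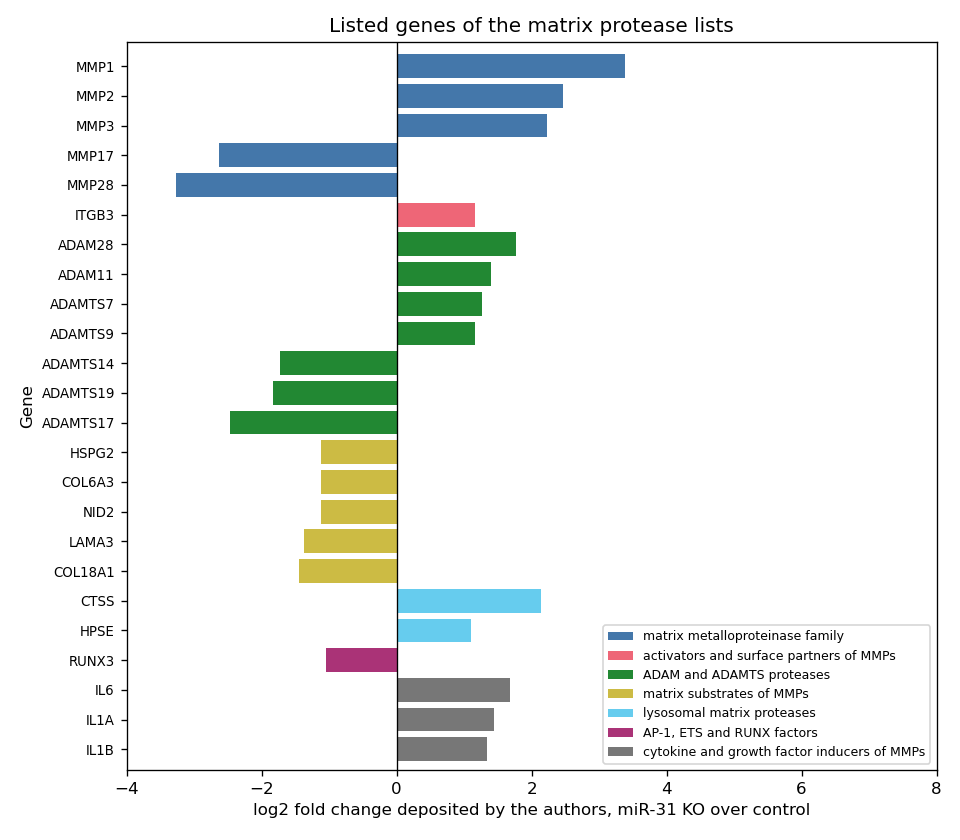
Log2 fold change deposited by the authors for every listed gene of the 7 pathway lists with a listed member, colored by list. Among the MMP genes 3 bars point to higher and 2 to lower values in miR-31 KO, and the 5 matrix substrate genes all point to lower values.

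Listed markers of cell types differed between the groups in both directions. Over all genes tested by the authors 5.87% were listed, 3.53% as higher and 2.34% as lower. The marker lists hold few genes, and no test of them was made. Of 10 fibroblast markers 2 were listed, LUM and PDGFRA, and their summed normalized counts were between 2.01 and 8.49 in the controls, where LUM was listed at 0, and between 26.7 and 42.5 in miR-31 KO. Of 12 leukocyte markers 2 were listed (CD3D and ITGAM, summing to between 5.62 and 20.03 in the controls and between 21.9 and 97.8 in miR-31 KO). CD3D was listed at 0 in every control, so the control sums are those of ITGAM alone. The groups overlapped for ITGAM, which was highest, at 92.6, in KO replicate 3, where MMP1, MMP2 and MMP3 were lowest among the KO libraries. Of 8 endothelial markers 3 were listed, with sums between 1386 and 2232 in the controls and between 4482 and 6158 in miR-31 KO. TIE1 (996 ± 513 against 4971 ± 974) and KDR (213 ± 52.0 against 432 ± 54.2) were higher in miR-31 KO, and ERG was lower (474 ± 32.8 against 134 ± 2.25). Of 7 epithelial markers 3 were listed, all lower, with sums between 1168 and 1891 in the controls and between 466 and 665 in miR-31 KO. Of 13 thyroid markers 3 were listed, all lower, with sums between 100.4 and 163 and between 32.7 and 38.2. Within these sums DUOX2 was listed at 0 in KO replicates 2 and 3. The other markers have no row in this table, so the labelled cell type could not be checked against them, and the part of these genes in the MMP result was not tested.

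The genes whose pattern over the 6 libraries was most like that of MMP1 or MMP2 were found among 775 other listed genes with a mean of at least 10 normalized counts. Likeness was the Euclidean distance between log2(normalized count + 1) values, each centred on its own mean. The values were not scaled, so genes with unlike fold changes lie apart even where they vary together. For MMP1 the nearest were BCL11A (0.373), KIF5C (0.391), ALOX5AP (0.406), CD6 (0.516) and LONRF2 (0.614), where the median distance was 3.25. ALOX5AP, needed for leukotriene synthesis, had 669, 370 and 264 normalized counts in the controls and 5545, 5255 and 4328 in the KO replicates, so it shared the high control replicate 1 and the low KO replicate 3. For MMP2 the nearest were ABI3BP (0.364), JAM3 (0.394), PALM2 (0.465), CDK5R2 (0.490) and GPR4 (0.503), with a median distance of 2.71. ABI3BP, a matrix protein gene, had 174, 139 and 132 in the controls and 1001, 1167 and 527 in the KO replicates. Neither MMP3 nor MMP2 was among the nearest of MMP1, with MMP3 in place 45 and MMP2 in place 48.

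**Figure D4:**
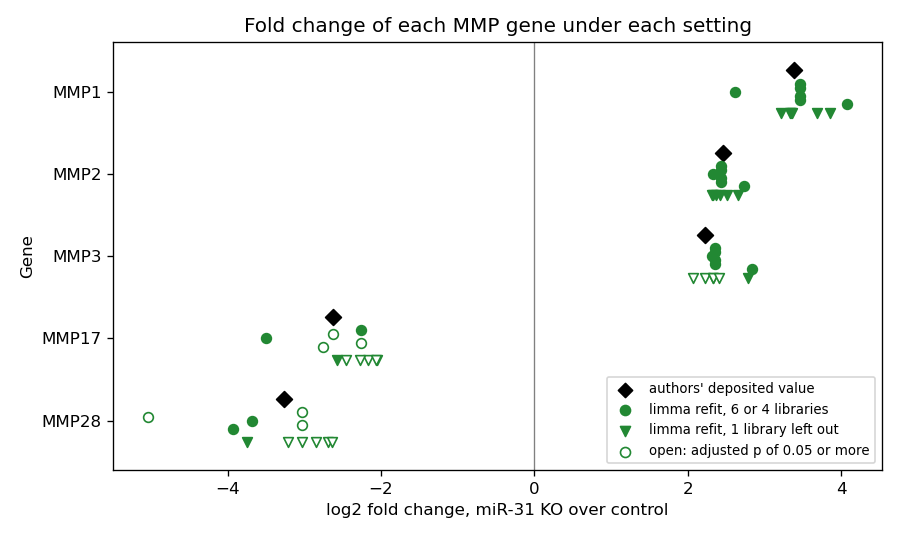
Log2 fold change of each MMP gene, miR-31 KO over control, under each setting; black diamonds are the authors' deposited values, green circles limma refits of 6 libraries (4 in the setting that leaves out a library of each group), green triangles refits without 1 library, and open symbols have an adjusted p of 0.05 or more. MMP1 and MMP2 stay filled throughout, MMP3 is open in 5 refits without 1 library, and MMP17 and MMP28 are open in most refits.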

How the data were processed

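RNA sequencing covered 6 K1 libraries; the titles number 3 control and 3 miR-31 KO libraries, although the series text mentions duplicates. Per the submitters' processing notes the tools were Bowtie2, HISAT and RSEM, on hg19 and hg38, without roles or versions. Each library column holds a signal unit: a normalized read count per gene, deposited by the authors, whose method is not given in the sources used here. The authors also deposited the log2 fold change, the p-value and its adjusted value, from a test that is not given in the sources used here. Dividing the first gene's adjusted p by its p gave 16806 tested genes.

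The deposited fold changes and adjusted p-values are the main result, because the genes were already selected. Refits used limma 3.58.1 in R 4.3.3 (eBayes with trend, log2 of the value + 1). Their Benjamini-Hochberg adjustment took 16806 as the number of tests but ranked only listed genes. In the authors' test the last listed gene ranked 3483, so unlisted genes with smaller p were left out of these ranks. The adjusted p of a refit can therefore be too high. The refits also estimate the spread from selected genes only, which can make it too small and the p of a refit too low. Which effect was larger was not tested. The fitting function was also run on simulated whole counts in which most genes were unchanged. That simulation held no selection of changed genes and adjusted over its own genes, so it does not check the calls given here. Alternatives were a pseudocount of 0.1, quantiles made equal, a minimum mean of 50, the replicate block, each library left out, an adjusted p threshold of 0.01 and a log2 threshold of 2. Lengths, positions and 3' UTRs came from GENCODE release 29 (GRCh38), which may differ from the authors' annotation. Other steps used Python 3.11.15, pandas 2.3.3, numpy 2.4.6 and scipy 1.17.1. The members and the gene lists were chosen with earlier results of these data known. Genes named are all MMP rows, the listed members of each list (the 4 with the smallest adjusted p where over 5) and the 5 genes nearest to MMP1 and to MMP2. Values are given per library or as mean ± SD. Depth is unknown, so there are no counting intervals.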

Additional observations from a re-analysis of the deposited data

How the results depend on the processing

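Under other settings the 5 MMP genes gave 68 fold changes, of which 47 kept the call, 21 fell short of it and 0 changed sign. MMP1 and MMP2 kept theirs in all 14 settings, with adjusted p up to 0.0464 and 0.0335. The settings with the authors' stricter thresholds only moved the cut-off on the deposited values. Their fold changes and adjusted p-values are therefore the main result counted again for every member. Both the 68 fold changes and the 47 kept calls include these repeats, which are not a separate check. The count of higher MMP genes was 3 with every setting but the refits without 1 library, where it was between 2 and 3. The count of lower genes was 2 with the authors' stricter thresholds and with quantile normalization. It was 1 in the limma refit, where MMP28 gave -3.03, and 1 in the refit of control replicates 2 and 3 against KO replicates 1 and 2, where MMP17 gave -2.76 (adjusted p = 0.0548). It was 0 with a pseudocount of 0.1, where MMP17 gave -2.63 and MMP28 -5.03, 0 with a mean of at least 50, which removes both genes, and 0 with the replicate block, where they gave -2.26 and -3.03 (adjusted p = 0.0893 and 0.0818). Without 1 library it was between 0 and 1. The cause of these lost calls was not tested. Leaving out 1 library gave log2 fold changes between 3.21 and 3.85 for MMP1, 2.32 and 2.65 for MMP2, 2.06 and 2.78 for MMP3, -2.57 and -2.05 for MMP17 and -3.75 and -2.64 for MMP28. Deviations from the group means correlated at 0.20, -0.13 and 0.15 over genes between libraries of the same number, which does not meet the rule for pairing. The block changed the call of MMP17 and of no other member relative to the refit. Quantile normalization moved the median log2 fold change of the listed genes by -0.52 and gave 2.61 for MMP1 and -3.50 for MMP17. It equalized values over genes already selected as different, which can itself move their fold changes. The ratios between MMP genes after quantile normalization were added after the data were seen. The level of MMP2 in the controls was 295 per kilobase with the union of exons against 390 with the longest coding transcript. A test without a filter needs a table of all genes and was not run. MMP17 and MMP28 have low values in every library, and the effect of depth on them was not tested.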

Other observations

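The members not named by the likeness rule were examined in the same way, a choice made after the values were seen. For MMP3 the nearest listed genes were UGT2B7 (distance 0.437), TIE1 (0.440), ETNK2 (0.575), ZNF836 (0.579) and VNN1 (0.588), with a median distance of 2.85. TIE1, an endothelial receptor gene, had 1587, 675 and 725 normalized counts in the controls and 5636, 5425 and 3853 in the KO replicates. For MMP17 the nearest of 776 genes were C22orf34 (0.397), CRIP2 (0.570), GALNT5 (0.637), NSUN5 (0.684) and KCNK2 (0.693). CRIP2 had 1585, 2537 and 2296 normalized counts in the controls and 422, 395 and 755 in the KO replicates, a pattern like that of MMP17 at a much higher level. For MMP28 the nearest gene, SPON2, a secreted matrix protein gene, was at a distance of 0.700, with 28.3, 41.1 and 31.4 in the controls and 2.65, 1.58 and 7.18 in the KO replicates. MMP17 and MMP28 were not among each other's nearest genes, at place 24 seen from MMP28 and place 213 seen from MMP17.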
